A study of Mus musculus with 12 samples.

Results

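The genes examined here were 10 genes of stem cell maintenance and Notch signalling, namely Hes1, Bmi1, Nes, Notch1, Notch2, Notch3, Jag1, Maml1, Rbpj and Numb, out of 10030 genes with an mRNA peak of N6-methyladenosine (m6A) in at least 1 library. A gene's peaks were those listed under its symbol, and a gene without an entry in a list was taken as not called there. The samples were cultures of C17.2, a single immortalised line of mouse neural stem cells (NSCs). Control cells were kept at standard oxygen, and the hypoxia/reoxygenation (H/R) group spent 12 h at 5% O2 and then 48 h back at standard oxygen, as a model of ischemia and reperfusion. Each group had 3 libraries, called A, B and C, whose values are given below in that order, and each library stood for an immunoprecipitate with an m6A antibody set against its input RNA. A list reports where the immunoprecipitate was enriched, and the level of each mRNA is not in it, so that more methylation and more RNA to detect it on cannot be told apart.

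Notch is a receptor on the cell surface that is cut when a ligand on a neighbouring cell, such as Jag1, binds it. The freed inner part enters the nucleus, where it joins the DNA-binding protein Rbpj and the coactivator Maml1 and switches on targets such as Hes1, a repressor of neuronal genes. In neural stem cells this pathway is known for holding cells in the undifferentiated state, and Numb, an endocytic adaptor inherited unequally at division, is known for restraining it. Bmi1, a Polycomb protein, keeps stem cells renewing themselves, and Nes encodes nestin, the intermediate filament by which these cells are commonly recognised.

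The lists of the series differed in length and in enrichment, and both bear on every count below. Control lists held 7863 to 12180 mRNA peaks and H/R lists 13954 to 22038. Their median fold enrichment, the ratio of immunoprecipitate to background at a peak, was 21.8 to 33.9 in control lists and 9.34 to 15.5 in H/R lists. Read numbers behind the lists were not used, so the depth of each value is unknown here. The deposited false discovery rate of the 75 peaks of the 10 genes was 25.0% or more, and 0 of them had 5% or less. In the whole lists 0% to 0.0575% of the peaks had 5% or less, and the median rate of a list was 68.9% to 100%. Among the markers of neural stem cells, Nes, Sox2 and Sox9 were called in all 6 lists, Msi1 in H/R A and C only, and Vim and Fabp7 in none. Of 29 markers of neurons, glia, endothelium and fibroblasts, between 2 and 4 were called in a control list and between 3 and 6 in an H/R list, and Gfap, the astrocyte filament, was called in control B and C only.

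The m6A writer complex favours the motif DRACH, in which the first base is A, G or T, the second A or G, the next are AC and the last is A, C or T, with GGACT as its best known form. The windows below, with an exception for Notch3, are shown because each lies in the stretch that most lists of that gene shared. The exception is the Notch3 window in the coding exon before the last. It is shown because its stretch was called in every H/R list and in no control list. Each window has the GGACT nearest to the middle of its stretch in capitals or, where there was no GGACT, the nearest DRACH. All are read 5′ to 3′ on the transcript strand of mm10.
Notch1, coding part of the last exon (chr2:26460543-26460567, minus strand): tgtcgcctgtGGACTccctcgagtc
Notch2, last exon after the stop codon (chr3:98148139-98148163, plus strand): aaatatttggGGACTagaagcctcc
Notch3, coding part of the last exon (chr17:32122445-32122469, minus strand): tggactctctGGACTcaccacggcc
Notch3, the coding exon before the last, called after H/R only (chr17:32124334-32124358, minus strand): ctgcagctgtGAACAacgtggaggc
Jag1, near the stop codon (chr2:137083008-137083032, minus strand): atcgtatagcAGACAgtgggctgcc
Maml1, coding sequence of exon 2 (chr11:50266493-50266517, minus strand): tgtttacggaGGACTttgaggagaa
Rbpj, near the stop codon (chr5:53653628-53653652, plus strand): ctttttgctgGGACTgaaactgact
Hes1, near the stop codon, called after H/R only (chr16:30067388-30067412, plus strand): cgctcacttcGGACTccatgtggag
Bmi1, last exon after the stop codon, called after H/R only (chr2:18684608-18684632, plus strand): cataaatgatGGACTagatgtgata
Nes, coding part of the last exon (chr3:87977440-87977464, plus strand): acgagagtcaGGACTccaggaagtc
Numb is not shown, since the 82 bases called in H/R A and C held no DRACH, as did 16.1% of all peaks within 20% of that length. A GGACT is common in long peaks: 58.6% of peaks about as long as the shared stretch of Hes1 held one, and 97.5% of those about as long as that of Notch2. Jag1 was without a GGACT in its 968 shared bases, where 70.6% of peaks of like length had one. The Nes stretch held 9 of them among 135 DRACH sites, or 26.8 sites per kb. Over all peaks of the 10 genes in a list, DRACH density was 20.7 to 23.2 per kb, beside 20.3 to 20.8 per kb over all mRNA peaks of a list, searched on the transcript strand with overlaps counted. A match says that the letters are present, not that the base is methylated.

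All 10 genes were called in at least 2 libraries, and they fell into 3 patterns. Nes, Notch1, Notch2, Jag1, Maml1 and Rbpj were called in all 6 lists, as were 39.5% of all genes. Hes1 and Bmi1 were called in every H/R list but in none of the controls, a pattern of 4.96% of all genes. Notch3 and Numb lay between, with Notch3 missing from control C only and Numb called in H/R A and C only. None of the 10 was called in all control lists and no H/R list, which held for 0.0698% of all genes. Altogether the control lists held 10, 8 and 7 peaks of these genes and the H/R lists 18, 13 and 19. Relative to the length of the lists these were 0.0821% to 0.0896% of all listed peaks among controls and 0.0862% to 0.0962% after H/R, ranges that overlap.

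**Figure D1:**
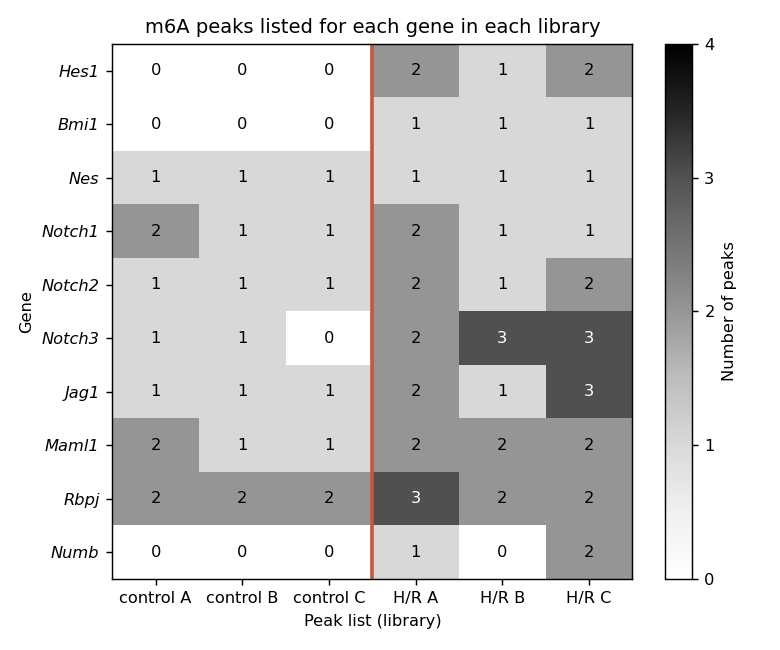
Number of m6A peaks listed for each of the 10 genes (rows) in each of the 3 control and 3 H/R libraries (columns), with the count printed in each cell and darker cells for more peaks. Hes1 and Bmi1 stand at 0 in every control library and at 1 or 2 in every H/R library, whereas Nes has 1 peak in all 6.

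In the number of peaks, 3 of the 10 genes, Hes1, Bmi1 and Notch3, had more in every H/R list than in every control list, beside 14.8% of all genes. None had fewer in every H/R list, beside 0.12% of all genes. In an exact permutation test (two-sided, 3 against 3 libraries) each of these 3 differences had p = 0.1, the smallest such a design allows, so that no single gene could pass 0.05. Adjusted over the 10030 genes, the p-values of Hes1, Bmi1 and Notch3 from this exact permutation test were 0.669. The remaining 7 genes had overlapping groups, with exact permutation p from 0.4 to 1. With every list held to its 7863 peaks of highest p score, the authors' p-value on a logarithmic scale, the 10 genes held 9, 8 and 7 peaks in the control lists and 8, 10 and 8 in the H/R lists. None of the 10 then had more or fewer peaks throughout, beside 2.51% of genes with more and 2.22% with fewer. The larger numbers after H/R were therefore not seen at equal list length.

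On the spliced transcripts the peaks lay in few places. They merged into 22 regions, of which 7 were called in all 6 lists (22.0% of all regions) and 3 only in the H/R group, there in every list (6.21% of all regions). Those 3 were the last exon of Hes1, the last exon of Bmi1 and the exon before the last of Notch3. With p scores of at least 100 the last exon of Bmi1 and the exon before the last of Notch3 were no longer in every H/R list. Their p scores in H/R B were 96.1 and 89.0. The last exon of Notch3 then joined that of Hes1, since its only control entry, in control B, had a p score of 78.7. The last exon, which in these genes joins the end of the coding sequence to the 3′UTR, carried a peak in every gene but Numb. By their centres, 9 of the 25 control peaks and 17 of the 50 H/R peaks lay in coding sequence, 10 and 15 in the 3′UTR, 3 and 8 within 100 bases of the stop codon, 3 and 6 within 100 bases of the start codon, and 0 and 4 in the 5′UTR. Of all placed peaks of a list, 52.7% to 55.2% lay in coding sequence in controls and 55.4% to 56.8% after H/R. The 3′UTR held 20.7% to 23.9% and 16.1% to 18.8%, and the 5′UTR 6.97% to 7.52% and 8.11% to 8.28%. Near the stop codon it was 5.8% to 6.43% and 5.39% to 5.65%, and near the start codon 10.0% to 10.7% and 11.4% to 13.2%. The 5′UTR peaks of the 10 genes belonged to Jag1 and Numb and were those of H/R A and C. Many entries covered an exon from end to end, 40 of 75 in all, so that a place within the exon cannot be read from them. Such entries made up 64.5% to 77.8% of all peaks of a list that could be placed on a transcript model.

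**Figure D2:**
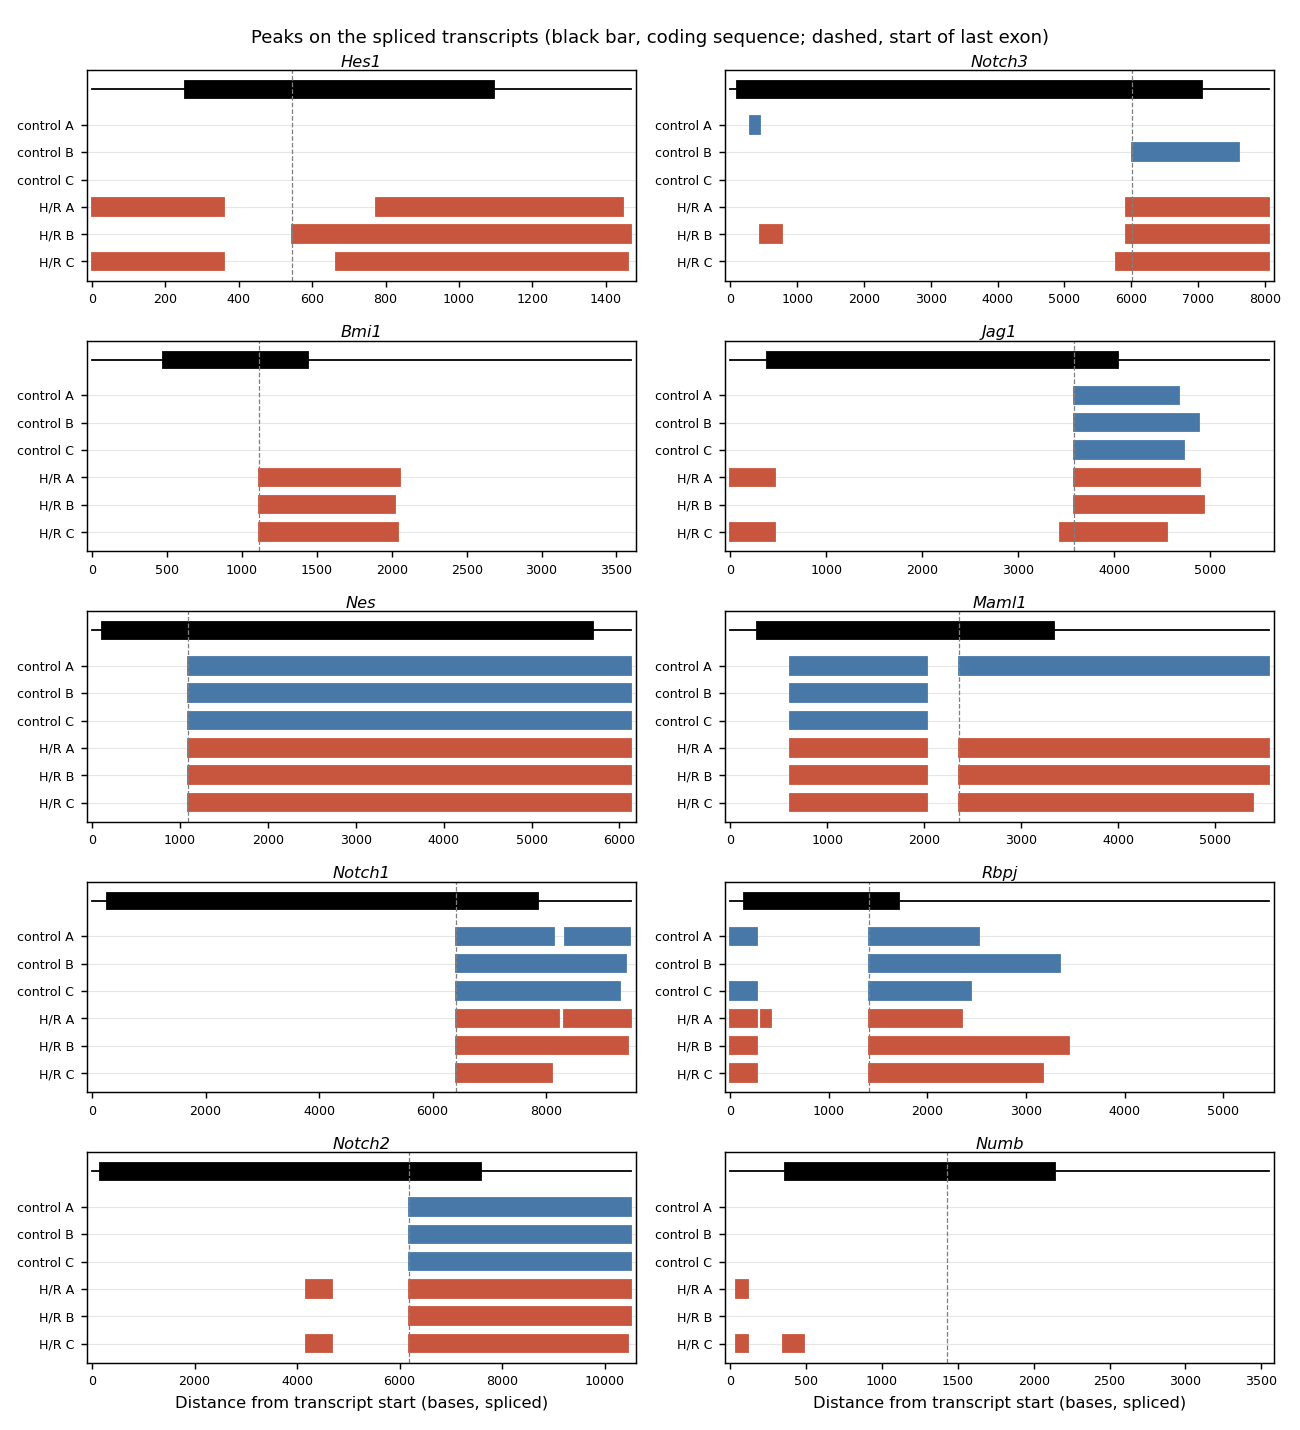
Position of every listed peak along the spliced transcript of each gene (horizontal axis, bases from the transcript start), with a row for each library, control in blue and H/R in red. The black bar marks the coding sequence and the dashed line the start of the last exon; 1 Rbpj peak, in control B, lies on another transcript and is not drawn. In 9 of the 10 genes the last exon carries a peak, and in Hes1 and Bmi1 it does so in the H/R rows only.

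Among the receptors, Notch2 was called over its whole last exon, number 34 of 34 and 4315 bases long, in all 6 lists, except that the entry in H/R C was 4273 bases. The fold enrichment of this region was 28.7, 39.4 and 23.6 in the control libraries and 17.9, 18.5 and 21.5 in the H/R libraries. Every H/R value was below every control value. A further Notch2 exon, number 25 with 506 bases of coding sequence, was called in H/R A at a fold of 6.50 and in H/R C at 9.23. It was in no control list and not in H/R B, the shortest of the H/R lists.

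Notch1, the founding receptor of the family in mammals, was called in its last exon throughout, and there the libraries disagreed about the extent. Control B, control C and H/R B held a single peak of 2884 to 3023 bases, control A and H/R A held a pair of peaks over the same exon, and H/R C held only the upstream one, of 1697 bases. The highest fold was 27.0, 43.2 and 21.6 in the control libraries and 9.81, 12.9 and 27.4 in the H/R libraries. These groups overlapped, since H/R C lay above control A and C (exact permutation p = 0.3, two-sided). Its peak number was 1.33 ± 0.577 in each group (SD, n = 3).

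For Notch3 the listed places differed as well as their number. Control A listed a 143-base exon near the start of the coding sequence at a fold of 71.5, the third highest fold of all entries of the 10 genes. No other list held that exon, and H/R B held the next one, of 339 bases, at 29.5. The last exon was called in control B at a fold of 27.1 and in the H/R libraries at 10.2, 7.40 and 12.7. Directly before it on the spliced transcript lies exon 32, of 98 bases, which was listed in the H/R libraries at 16.7, 10.4 and 13.5 and in no control list. It held 3 DRACH sites and no GGACT, the latter being present in 8.32% of peaks of like length. In H/R B this exon had a p score of 89.0, and the lowest p score that a list contained was 50 to 50.03. Notch3 had 0.667 ± 0.577 peaks among controls and 2.67 ± 0.577 after H/R (SD, n = 3 each).

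Jag1, the ligand among the 10, was called at the end of its coding sequence and the start of its 3′UTR in every library, over 968 to 1354 bases. The fold there was 41.2, 42.5 and 33.5 in the control libraries and 15.3, 28.7 and 19.7 in the H/R libraries, with no overlap. Its first exon, 468 bases with no DRACH site, was called in H/R A at 11.1 and in H/R C at 19.8. Of all peaks within 20% of that length 0.431% had no DRACH site. The coding exon before the last was called in H/R C alone, at 14.0.

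For Numb the calls were few and weak. The 82 bases of a first exon were listed in H/R A at a fold of 5.64 and in H/R C at 7.16, and a 141-base first exon of another transcript was listed in H/R C at 6.97. Their p scores, 88.4 to 105, were low in lists whose scores reached 3233, and the 82 bases stood under a transcript name that is not in the gene models used here. No control list and not H/R B named Numb, and it was not called with a fold of at least 10.

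Rbpj, the DNA-binding partner, had the most peaks of the 10 genes, 13 over the 6 lists. It carried 2 regions in every library, one over a first exon at the start codon and one from the last coding bases into the 3′UTR. At the first exon the fold was 40.6, 72.4 and 68.0 in the control libraries and 31.5, 34.1 and 24.7 in the H/R libraries. Every H/R value lay below every control value. The entry of control B, of 239 bases, stood on the first exon of another transcript and shared 1 base with that of the other libraries. At the other end the fold was 31.6, 48.4 and 35.4 in the control lists and 15.4, 21.2 and 21.0 in the H/R lists, again with no overlap. H/R A held a further region, exon 3 with 96 bases, at 4.59. The pattern of peak numbers, 2 in each list and 3 in H/R A, was shared exactly by 11 other genes over the 6 libraries, of which Amer1, Antxr2 and Bbc3 come first by symbol.

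Maml1, the coactivator of the complex, was called over the whole of its second exon, 1416 bases of coding sequence, in all 6 lists. The fold there was 51.3, 76.9 and 31.8 in the control libraries and 22.9, 25.0 and 24.9 in the H/R libraries. The control libraries were spread widely, and the H/R libraries lay close together below them all. The last exon, of 3195 bases, was called in control A at 19.5 and in the H/R libraries at 5.85, 9.04 and 5.91. Because control A held it too, the peak number of 1.33 ± 0.577 among controls and 2.0 ± 0.0 after H/R (SD, n = 3 each) had an exact permutation p of 0.4. With folds of at least 10 only the entry of control A was kept, and the difference in peak number turned from 0.667 to -0.333. Maml1 was also among the genes that the study itself picked from these samples, so its values are not independent evidence of a direction. The peak that the study listed for Maml1, as higher after H/R, lay near the transcript start, outside the regions given here.

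Hes1, the target of the pathway, was called only after H/R. Its last exon was listed in the H/R libraries over 673, 925 and 794 bases at a fold of 15.9, 24.7 and 14.7, and its first exon, at the start codon, in H/R A at 9.64 and in H/R C at 13.6. Within their own lists the highest folds of Hes1 ranked at percentiles 76.8, 76.4 and 70.4. The p scores were more ordinary, 371.5 to 502.9 for the best peak of each list. At equal list length, where the lowest score kept was 567 in H/R A, 292 in H/R B and 603 in H/R C, only the peak of H/R B was still listed. The lists of both groups ran down to scores of about 50, and the control lists held no Hes1 peak.

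Bmi1 was likewise called only after H/R, in the first part of its last exon, over 936, 906 and 928 bases. Its fold was low, 5.17, 8.04 and 9.21 in the H/R libraries, and ranked at percentiles 13.1, 8.22 and 44.1 of those lists. The p score was 179.5, 96.1 and 1499, so that the library with the strongest call was H/R C. With p scores of at least 100 Bmi1 was no longer listed in H/R B, and with folds of at least 10 it was in no list, which left Hes1 as the only one of the 10 called in all H/R lists and no control list under either rule, beside 5.97% and 1.58% of all genes.

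Nes was listed alike in all 6 libraries. Its last exon, 5031 bases that hold most of the coding sequence of nestin, was called whole in every library, and no other peak was. The p score was 3100 in each list, a value that 382 to 2737 peaks of a list carried. Fold enrichment was 50.5, 62.4 and 39.7 in the control libraries and 27.2, 23.7 and 22.0 in the H/R libraries. All H/R values were below all control values.

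Across the 6 genes called in all lists, the highest fold of Nes, Notch2, Jag1, Maml1 and Rbpj was lower in every H/R list than in every control list, and so it was for 53.6% of all genes called in 6 lists. None was higher throughout, beside 0.277% of those genes. The group means were 60.4 ± 17.2 and 30.1 ± 4.86 for Rbpj, 53.3 ± 22.6 and 24.3 ± 1.17 for Maml1, and 50.8 ± 11.4 and 24.3 ± 2.65 for Nes (SD, n = 3 each, control first). Jag1 followed with 39.1 ± 4.9 and 21.3 ± 6.85, then Notch2 with 30.6 ± 8.1 and 19.3 ± 1.93 and Notch1 with 30.6 ± 11.3 and 16.7 ± 9.36 (SD, n = 3 each). In this order of the control means, neighbouring genes lay within the spread of their libraries. The ratio of the H/R mean to the control mean ran from 0.455 in Maml1 to 0.631 in Notch2. For each of the 5 genes the exact permutation p was 0.1, with an adjusted p of 0.186 over the genes called in all lists.

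As ranks within a list the picture was different. The percentile of the highest fold overlapped between the groups in all 6 genes, and its mean was 2.33 to 21.1 points higher in the H/R group. Over all genes called in 6 lists, 31.1% had a higher percentile in every H/R list and 0.731% a lower one. The lower folds after H/R moved with the lower median fold of the H/R lists.

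**Figure D3:**
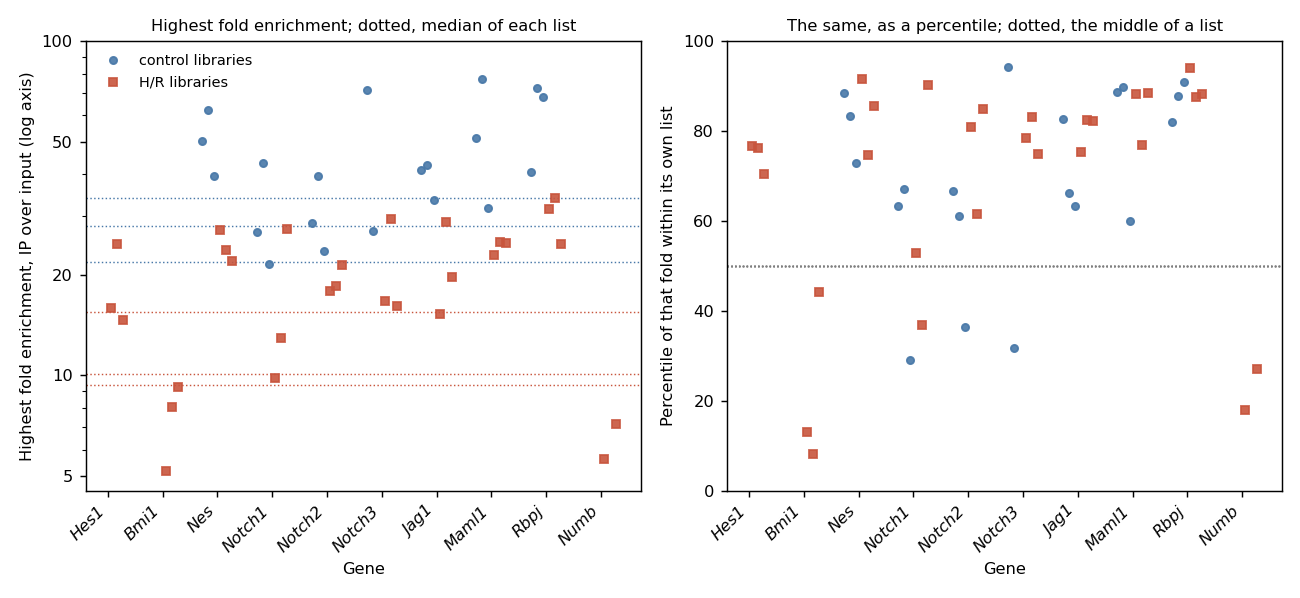
Highest fold enrichment of each gene in each library on a log axis (left), with dotted lines at the median of all mRNA peaks of each list, and the percentile of that fold within its own list (right, from 0 to 100), control libraries as blue circles and H/R libraries as red squares. On the left Nes, Notch2, Jag1, Maml1 and Rbpj separate by group, while on the right the groups overlap in every gene called in all 6 libraries.

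By the summed length of its peaks, 4 of the 10 genes were longer in every H/R list, beside 16.3% of all genes, and none was shorter throughout, beside 1.09%. They were Hes1, Bmi1, Notch3 and Jag1, each with an exact permutation p of 0.1. Jag1 covered 1087, 1301 and 1139 bases in the control libraries and 1773, 1354 and 1587 in the H/R libraries, a ratio of the means of 1.34. Nes did not vary at all, at 5031 bases. At equal list length none of the 10 was longer in every H/R list, beside 3.97% of all genes.

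The wider Notch pathway was followed in 62 genes, of which 46 had a peak in at least 1 list. More peaks in every H/R list than in every control list were seen in 14 of them, or 30.4%, beside 14.8% of all genes, and fewer in 0. The median difference in peak number was 1 over these genes and 0.667 over all genes. The 8 of the 10 genes that belong to the pathway supplied Hes1 and Notch3. Without these 8, 12 of 38 were higher throughout. At equal list length 1 pathway gene had more and 1 fewer, beside 2.51% and 2.22% of all genes.

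By role, the nuclear complex had the most such genes, with 6 of its 9 higher throughout, beside 14.8% of all genes. All 9 were called in every H/R list against 7 in each control list. Of all 10030 genes, 4707 to 6470 were called in a control list and 6639 to 8936 in an H/R list. Ep300, a histone acetyltransferase recruited by Maml proteins, held 7, 6 and 6 peaks in the control libraries and 9, 8 and 9 in the H/R libraries. Crebbp, its close relative, held 7, 6 and 7 and then 8, 9 and 9. Snw1, a splicing factor that also joins the Notch complex, held 4 in each control list and 6, 5 and 6 in the H/R lists. Maml3, another coactivator of the Maml1 family, held 3, 2 and 2 and then 4 in each. The remaining pair, the acetyltransferases Kat2a and Kat2b, named after their values were seen, had no control peak and 1 or 2 peaks in each H/R list.

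In the corepressors, which hold Rbpj targets silent without Notch, Ncor1 had 5 peaks in each control list and 10, 8 and 10 in the H/R lists. Of the 11 listed genes that cut or modify receptors and ligands, 1 was higher throughout, Psen2, a catalytic subunit of γ-secretase, with 1 peak in each control list and 3, 2 and 4 in the H/R lists. Trafficking genes were higher throughout in 3 of 10 cases, where 14.8% of all genes were. Receptors were so in 1 of 3, Notch3, and none of the 4 listed ligands was. Of the 7 target genes only Hes1 and Hes6 had any peak, and Hes5, Hey1, Hey2, Heyl and Nrarp had none.

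**Figure D4:**
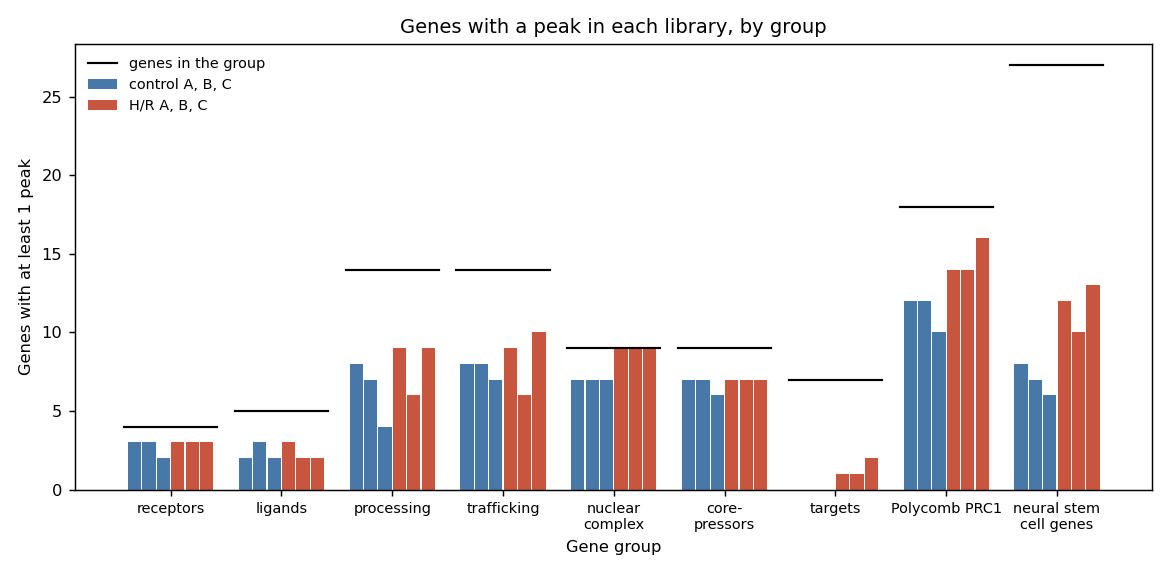
Number of genes with at least 1 peak (vertical axis, from 0) in each library, for 7 groups of Notch pathway genes, Polycomb PRC1 genes and neural stem cell genes, with 3 control bars in blue and 3 H/R bars in red. The black line above each group gives its size. In the nuclear complex 7 of 9 genes are called in each control library and 9 in each H/R library, whereas no Notch target is called in a control library. Of all 10030 genes, 4707 to 6470 are called in a control library and 6639 to 8936 in an H/R library.

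Bmi1 works in the Polycomb complex PRC1, which modifies histone H2A. Of 18 genes of that complex 16 had a peak, and 4 of them, or 25.0%, had more in every H/R list, Bmi1 included, beside 14.8% of all genes. Phc2 was, as Bmi1, without a peak in the control lists and had 4, 1 and 7 in the H/R libraries. Pcgf3 held 3, 2 and 2 and then 7, 4 and 6. Cbx2, a reader of methylated histone H3, held 1 peak in each control list, but 3 in those after H/R. At equal list length 0 of the PRC1 genes had more peaks throughout, beside 2.51% of all genes.

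In the list of neural stem cell genes, 14 of 27 had a peak and 4 of these, or 28.6%, were higher throughout, beside 14.8% of all genes. Of the 4, Hes1 and Bmi1 are among the 10 genes examined. The remaining pair were Gli3, a transcription factor of Hedgehog signalling, with 1, 1 and 2 peaks in the control libraries and 6, 3 and 8 in the H/R libraries, and Ezh2, the methyltransferase of Polycomb complex PRC2, with 1 in each control list and 2, 2 and 4. Among intermediate filament genes, which include Nes, 4 of 10 had a peak and 0 were higher throughout. Beside Nes these were Synm, with 2 in each control list and 4, 2 and 3 in the H/R lists, Gfap, and Des.

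Leaving out single libraries changed which genes were named. Without H/R B, the shortest H/R list, 6 of the 10 genes had more peaks in both remaining H/R lists than in any control list, with Notch2, Jag1 and Numb joining Hes1, Bmi1 and Notch3, beside 32.1% of all genes. Without control A, the longest control list, Maml1 joined these 3, beside 26.0% of all genes. Hes1 and Bmi1 were called in all remaining H/R lists and no control list whichever library was left out, beside 5.48% to 11.7% of all genes. The 5 genes with a lower fold were lower in each of the 6 sets, and without H/R C Notch1 was too. The share of all genes with a lower fold was not counted in these sets. With every library kept it was 53.6% of the genes called in all lists.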

How the data were processed

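MeRIP-seq was done on 12 samples in 4 groups of 3 (control and H/R, input and immunoprecipitate). Per the labels and the methods, trimming used cutadapt (version 1.9.3) and alignment to mm10 used HISAT2 (version 2.0.4), with STAR for input libraries too. MACS was run by the authors on each library, immunoprecipitate against input, and their own program kept the parts on exons. Each deposited fold enrichment is a ratio of immunoprecipitate to the background MACS estimated. Each deposited p score is 10 times the −log10 of the peak's p-value. A false discovery rate, in percent, was deposited for each mRNA peak. Library letters could not be matched to replicate numbers. Nothing says that replicates were separate cultures, so p-values measure only a spread that may be technical.

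Peaks were read by gene symbol in Python (version 3.11.15) with pandas, and placed on transcript models of mm10 (RefSeq and GENCODE vM21). A peak's centre set its class, the 100 bases around start and stop codons first. Group means over 6 libraries were compared by exact permutation (two-sided), adjusted by Benjamini-Hochberg over all genes. Regions merged with an overlap of at least 1 base. The counting was tested on simulated data. Members, gene lists and rules were chosen with earlier results of these data known. All 10 genes were named, and of the lists at most 12 others, those apart between all H/R and all control lists, by size of the difference; 1 of these is not reported here. Alternatives were a p score of at least 100, a fold of at least 10, lists of 7863 peaks, libraries left out, any gene name over the gene, peaks within 100 bases counted as 1, percentiles of fold, a reciprocal overlap of 50%, GGAC, and each base for the class.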

Additional observations from a re-analysis of the deposited data

Results flagged for a closer look

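Some further peaks lay outside the mRNA lists, in the lists of long noncoding RNA (lncRNA) and circular RNA (circRNA) peaks. They lay on the same genes or on a transcript antisense to Notch1, and were called in more H/R than control lists. A noncoding transcript of Nes was called in 3 H/R lists and no control list, at folds of 8.34, 12.1 and 10.2 in the order A, B, C. The peak was up to 911 bases long, on chromosome 3 from 87971078 to 87971988 of mm10. The transcript is classed as overlapping an exon of Nes on the same strand, so noncoding and coding RNA cannot be told apart there. The coding transcript was called in all 6 lists, in its last exon. Of all lncRNA transcripts listed, 5.84% were called in all H/R lists and no control list. A noncoding transcript of Jag1 was called in 2 H/R lists (A at 8.74, and B), and in control A at 21.6. The transcript 0610009E02Rik, classed as antisense to Notch1, was called in 2 H/R lists, at 21.1 in H/R A and 25.6 in H/R C, and in control A at 32.1. That peak, on chromosome 2 from 26445696 to 26446200, lies outside Notch1 itself, which spans 26457903 to 26516663. A circRNA of Rbpj was called in 1 H/R list, H/R A, at 4.59 and in no control list, and that entry is the same MACS peak as exon 3 of Rbpj in the mRNA list. These differences were not tested.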

How the results depend on the processing

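No paired analysis was possible because nothing links the letters A, B and C of the lists with replicate numbers in the labels. At equal list length the counts of genes with more peaks in every H/R list were 0 of the 10 genes, 1 of the Notch pathway, 0 of PRC1 and 0 of the stem cell list, beside 2.51% of all genes. Then 0 of the 10 were called only after H/R (1.13% of all genes), 0 were longer throughout (3.97%), and 0 merged regions were called only after H/R. With folds of at least 10, 1 of the 10 was called only after H/R (1.58% of all genes) and 2 were longer throughout (5.14%), and the counts of genes with more peaks were 2 in the Notch pathway, 1 in PRC1 and 2 in the stem cell list, beside 3.39% of all genes. With p scores of at least 100, 1 of the 10 was called only after H/R, beside 5.97% of all genes. As percentiles 0 of the 10 had a lower fold throughout, and the H/R minus control difference was 9.33 in Jag1, 5.04 in Maml1, 2.33 in Nes, 6.81 in Notch1, 21.1 in Notch2 and 2.99 in Rbpj, of opposite sign to that of the folds (-17.8, -29.1, -26.6, -13.9, -11.3 and -30.3). The Maml1 difference in peak number was -0.333 with folds of at least 10. GGAC occurred 5.06 times per kb, where DRACH occurred 21.7 times. With single libraries left out, the range was 3 to 6 genes of the 10 with more peaks, 2 to 3 called only after H/R, 5 to 6 with a lower fold, 4 to 6 longer throughout, 3 to 7 regions called only after H/R, and 14 to 24, 4 to 7 and 4 to 7 genes with more peaks in the Notch, PRC1 and stem cell lists. The highest of these came without H/R B, or for the lower fold without H/R C and for PRC1 without control A. In the same sets 15.8% to 32.1% of all genes had more peaks, and 5.48% to 11.7% were called only after H/R. Both shares were highest without H/R B. Shares over all genes or regions were not counted there for fold, length and merged regions. With a reciprocal overlap of 50%, 6 regions in place of 7 were called in all lists. The share of peak centres in coding sequence differed by -0.373 points (H/R minus control), and by -3.77 to 1.95 with a library left out, so it has no settled sign. The cause of these changes was not tested. The other 99 values stayed within 1.5 times the full-list count, or within 1 SD for the motif density and the coding share, and 157 differences of single genes kept their sign or were 0 on one side. A gene not listed was below the threshold of the caller, which says nothing about whether it was methylated. Whether depth bears on these absences was not tested.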

Other observations

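A second circRNA of Rbpj, which overlaps the start of the last exon, was called in all 6 circRNA lists at a fold of 31.6, 48.4 and 35.4 in the control libraries and 15.4, 21.2 and 21.0 in the H/R libraries. In each of the 6 libraries it was the same MACS peak as the one at the stop codon in the mRNA list, so the circular and the linear RNA cannot be told apart there.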
